A study of Hordeum vulgare with 28 samples.

Results

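Of the 25592 genes counted in barley leaves, 58 were lowered by early wounding and raised by prolonged feeding of a spider mite, and these 58 genes are described here. They were chosen from the measured values themselves. Counts were divided by the column total and scaled to 1000000 counts (CPM), and the change of a treatment was L = log2((mean CPM of the treatment + 0.5) / (mean CPM of the control + 0.5)), with means over 4 replicates. A member had an L of at most -1 2 h after wounding and of at least 1 after 24 h of feeding by *Oligonychus pratensis*. Members are numbered from 1 to 58 in order of their L in the latter treatment, highest first.

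The leaves came from barley (*Hordeum vulgare*) of the cultivar Morex, 30 days old, with leaf 5 used throughout, and all carried wax barriers that enclosed the treated section, controls included. Control leaves (C) received nothing more. *O. pratensis*, a spider mite specialized on grasses (called BGM in the sample descriptions), was left on leaves for 2 h (O2) or 24 h (O24). *Tetranychus urticae*, a generalist spider mite (TSSM), fed for 2 h (T2) or 24 h (T24), and other leaves were pressed with 60 grit sandpaper and sampled after 2 h (W2) or 24 h (W24). Each section held 400 mites in the 2-h groups and 200 in the 24-h groups, so time and mite number differ together and cannot be told apart. Every group had 4 separate leaves. One control group served both time points, since all leaves were collected in the same part of the day.

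Spider mites pierce single leaf cells with their stylets and empty them, mainly in the mesophyll beneath the epidermis, and they continue to do so for as long as they stay. Crushing a leaf breaks many cells at once and then stops. Both kinds of damage are known to raise the hormone jasmonate within minutes to hours. This hormone leads to the breakdown of a set of repressors, the JAZ proteins, which frees the transcription factors they hold and switches on defence genes, while many genes of photosynthesis and growth are turned down.  No identifier of the 58 was given a gene name or product in the sources used here, and no sequence or position on the build of the counts was used. The roles of the members are not known here. Identifiers of the form MLOC_70200 are printed for 4 members only, and all others are given by their number.

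The libraries held between 11.7 M and 38.3 M counts (M, mega), and 16948 genes passed a filter on low counts, all 58 members among them. When the filter was applied to the samples other than O24 and T24, all 58 passed as well, so that none was tested only because the mites had raised it. The replicates were separate leaves, and p-values measure the spread between them. In libraries made from whole leaf sections, fewer cells of a type and less RNA per cell cannot be told apart. Barley counterparts of 4 leaf mesophyll genes (LHCA1, LHCB3, LHCB6 and CHLI1) were all detected. Their summed level was 6834 to 9696 CPM in C and 6202 to 8084 in W24, but 2659 to 4432 in T24, 2591 to 3545 in W2 and 1423 to 2381 in O24, so it was lower than in every control leaf both where the members were low (W2) and where they were high (O24). Counterparts of 4 genes of dividing cells (MCM3, MCM5, PCNA2 and RNR1) summed to 19.1 to 27.9 CPM in C, 20.7 to 28.2 in W24 and 21.3 to 27.4 in W2, and to 33.2 to 40.3 in T24 and 37.4 to 42.8 in O24. By group means these 4 did not move alike. RNR1 went from 6.30 CPM in C to 19.3 in O24 and MCM3 from 0.756 to 2.24. PCNA2 had 16.2 CPM in C, 15.6 in O24 and 19.5 in T24. MCM5 had 0.856 CPM in C, 2.66 in W2 and 2.66 in O24. The single epidermal gene checked, the counterpart of CER1, stayed below 0.614 CPM in every sample and had counts in every group. The part of these shifts in the results below was not tested.

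The opposite movement that defines the members was met by few of the genes that passed either side of the rule. Both L values divide by the same control mean, so noise in the controls moves them the same way and thins this class. The size of that effect was not tested. Of all 25592 genes, 1542 were lowered in W2 and 3690 were raised in O24. The 58 members were 3.76% of the 1542 genes lowered in W2, whereas 775 of those genes (50.3%) were lowered in O24 too and 709 stayed within 1 of the control on the log2 scale. They were 1.57% of the 3690 genes raised in O24, of which 1601 (43.4%) were raised in W2 too and 2031 stayed within 1 there. The reverse pattern, raised in W2 and lowered in O24, was also met by 58 genes.

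In the samples that chose them, the members had a median L of -1.25 in W2 (quartiles -1.36 and -1.08, lowest -2.29) and a median L of 1.86 in O24 (quartiles 1.47 and 2.35, highest 4.85). The members nearest the W2 limit, numbers 57 and 7, had L values of -1.002 and -1.006, and the nearest genes outside had -0.98 in both cases. At the O24 limit members 58 and 57 each had an L of 1.01, and the nearest genes outside had 0.997 and 0.97. All values of W2 and O24 against C, and of O24 against W2 or T24, restate the rule in whole or in part and are given as description. In a fit across all genes 55 members were called lower in W2 than in C (12.6% of all tested genes were) and 51 higher in O24 than in C (20% of all tested genes were), where called means a Benjamini-Hochberg adjusted p below 0.01 in edgeR with a log2 fold change beyond 1 in either direction.

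**Figure D1:**
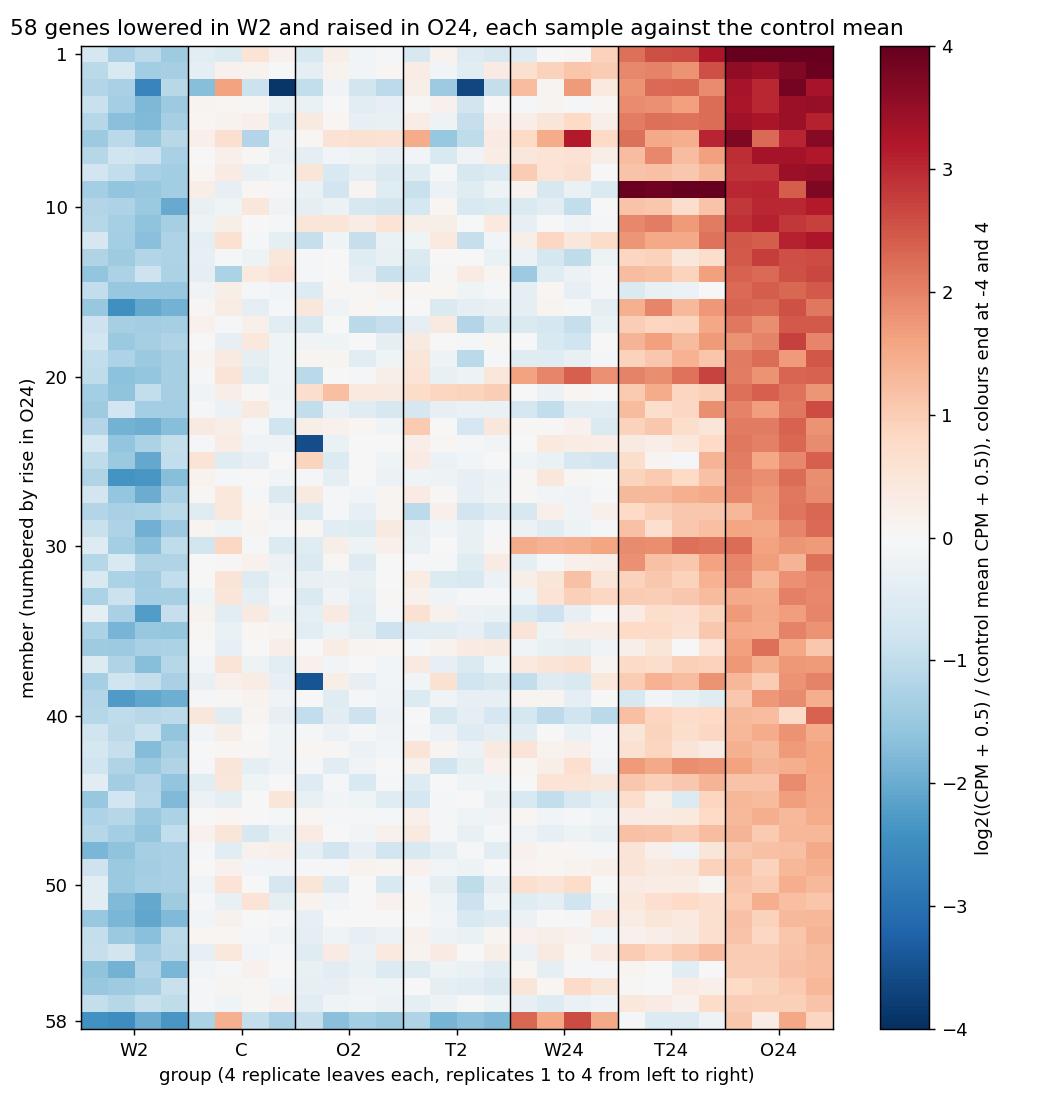
Log2 of (CPM + 0.5) in each of the 28 samples over the control mean + 0.5, with 1 row for each of the 58 members (numbered by rise in O24) and 4 replicate columns for each group; red is above and blue below the control mean, and colours end at -4 and 4. W2 is blue and O24 red by the rule; T24, which the rule did not use, is red for most rows, whereas O2, T2 and W24 are pale for most.

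In reads per library, with no correction for transcript length, the members lay in the usual range. Their CPM in C ran from 0.691 to 113 with a median of 10.9, against a median of 11.7 for all tested genes. The median member stood at 3.47 CPM in W2, 42.7 in O24, 20.0 in T24, 12.3 in W24, 8.75 in O2 and 8.59 in T2. Together they took 1116 ± 147 CPM in C (SD, n = 4), 429 ± 62.1 in W2, 985 ± 42.2 in O2, 1002 ± 107 in T2, 1294 ± 76.4 in W24, 2414 ± 277 in T24 and 5286 ± 600 in O24. The 5 highest members of each group held 36.5% of that sum in C, 38.2% in T24 and 45.7% in O24. By medians, replicates of the members also spread more than those of all tested genes. The SD over replicates on the log2 scale had a median of 0.32 in C for the members and 0.19 for all tested genes, with 0.21 and 0.15 in O24. C and O24 chose the members, which can favour genes with a leaf far from the rest. In groups outside the rule the medians were 0.26 and 0.18 in O2 and 0.29 and 0.19 in T2. They were 0.23 and 0.18 in T24 and 0.26 and 0.16 in W24.

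Outside the samples of the rule, the median member lay above control after 24 h of *T. urticae* and near control after 2 h of either mite and 24 h after wounding. In T24 the median L was 1.05, 31 of 58 had an L of at least 1, and 54 had a mean above C. With TMM factors, which scale between libraries, the edgeR median log2 fold change of T24 against C was 0.93, against 0.02 for all tested genes. In W24 the median L was -0.00 with 29 members above and 29 below C, 4 with an L of at least 1 (members 6, 20, 30 and 58) and none at -1 or lower. The 2-h mite groups lay slightly low, with median L values of -0.16 in O2 and -0.14 in T2 and with 46 and 44 members below C. Only member 58 reached an L of -1 in either, and without C replicate 2, which stood far above the other controls in this gene, its L was -0.17 in O2 and -0.45 in T2 and 0 members reached -1. With the control mean taken without that leaf, a setting chosen after seeing the data, 34 and 36 members lay below control in O2 and T2, 6 had an L of at least 1 in W24 and 1 (member 40) lay at -1.01 there, and the median L in T24 was 1.08. These 4 sets of values share the control samples with each other and with the rule. Against C, edgeR called 21 members higher and 0 lower in T24 (14.1% and 5.79% of all tested genes), 3 higher and 1 lower in W24 (5.72% and 0.277%), and 0 in either direction in O2 (2.63% and 0.0177%) and T2 (2.47% and 0.0236%).

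Across the 7 groups W2 had the lowest mean for all 58 members. O24 had the highest mean for 53, T24 for 4 (members 9, 20, 30 and 43) and W24 for 1 (member 58). The rule placed W2 below C and O24 above C, so these ranks follow from it in part. The T24 mean lay between C and O24 for 50 members, above O24 for 4 and below C for 4 (members 15, 39, 55 and 58), or for 3, without member 58, when C replicate 2 was left out. Per sample, the median over members of the log2 change from the control mean was 1.01 ± 0.12 in T24 (SD, n = 4, range 0.90 to 1.18) and 0.02 ± 0.03 in W24 (range -0.00 to 0.06), so the 4 leaves of each treatment lay close together and the 2 ranges were far apart.

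**Figure D2:**
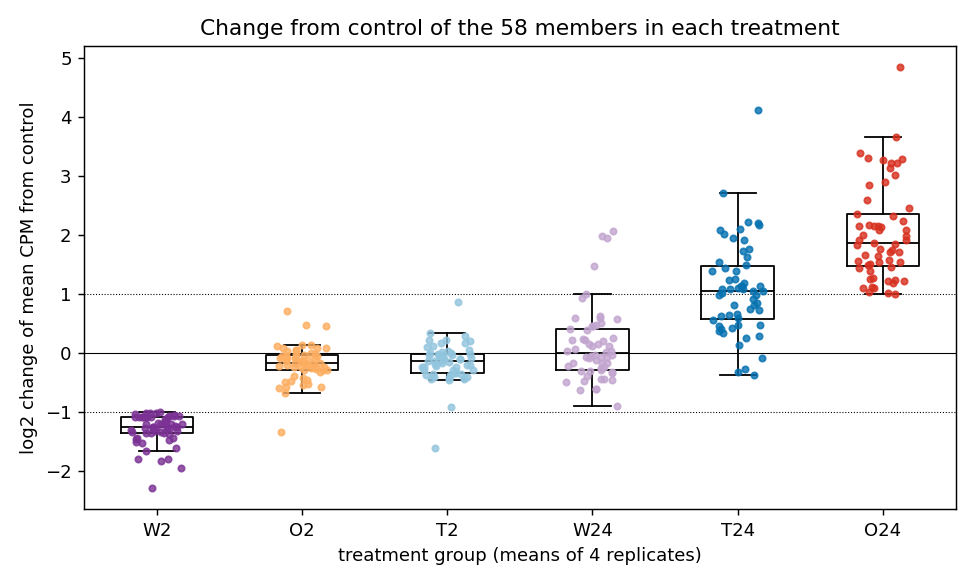
L, the log2 change of mean CPM from the control, for each of the 58 members (points) in the 6 treatments; boxes give the quartiles and the median, whiskers reach the last point within 1.5 box lengths, and dotted lines mark -1 and 1. The medians are -1.25 in W2 and 1.86 in O24, which chose the members, 1.05 in T24, and -0.00, -0.14 and -0.16 in W24, T2 and O2.

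The first comparison that rests on no sample of the rule set T24 against W24, which asks how 24 h of feeding by the generalist differed from 24 h after a single wounding. Of the 58 members, 27 (46.6%) were called higher in T24 and 1 (1.72%) lower, where 8.86% of all tested genes were called higher and 5.04% lower. The log2 fold changes of the members had a median of 0.98, against -0.00 for all tested genes, and 52 of 58 were positive. The 27 called higher ranged from 1.02 (member 7) to 5.04 (member 9). For 43 members every T24 leaf lay above every W24 leaf (29.9% of all tested genes did), and for 1 member every T24 leaf lay below (16.6%). That exception was member 58, the only member called lower.

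Genes that share one side of the rule give the scale for this count. Among genes raised in both W2 and O24, 607 of 1601 (37.9%) were called higher in T24 than in W24, and among genes raised in O24 and within 1 of the control in W2, 720 of the 2006 tested (35.9%) were. Genes lowered in W2 without a rise in O24 gave 5 of 708 (0.706%), and genes lowered in both gave 1 of 775 (0.129%) with 267 (34.5%) called lower. The members therefore stood with the other genes raised in O24 and apart from the other genes lowered in W2 in these counts, and no test was made of the differences between the classes.

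The second such comparison, T24 against T2, set leaves 24 h after the release of *T. urticae* against leaves 2 h after it. Higher levels at 24 h were called for 29 members (50%) and lower levels for 0, where 10% of all tested genes were called higher and 3.26% lower. The median log2 fold change was 1.14, against 0.03 for all tested genes, and 55 members had a positive value. For 45 members the 4 leaves of T24 all lay above the 4 leaves of T2 (34.6% of all tested genes), and for 0 they all lay below (11.9%). The classes raised in O24 again gave nearby shares, 660 of 1601 (41.2%) where W2 was also raised and 852 of 2006 (42.5%) where W2 was within 1. T24 samples serve both comparisons, so their calls are not independent. In all, 21 members were called higher in both, 6 in T24 against W24 alone, 8 in T24 against T2 alone, and 22 in neither, with member 58 called lower in the former and not called in the latter. Joint calls were not counted over all tested genes or the other classes, so this overlap is description and not a trait of the members.

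**Figure D3:**
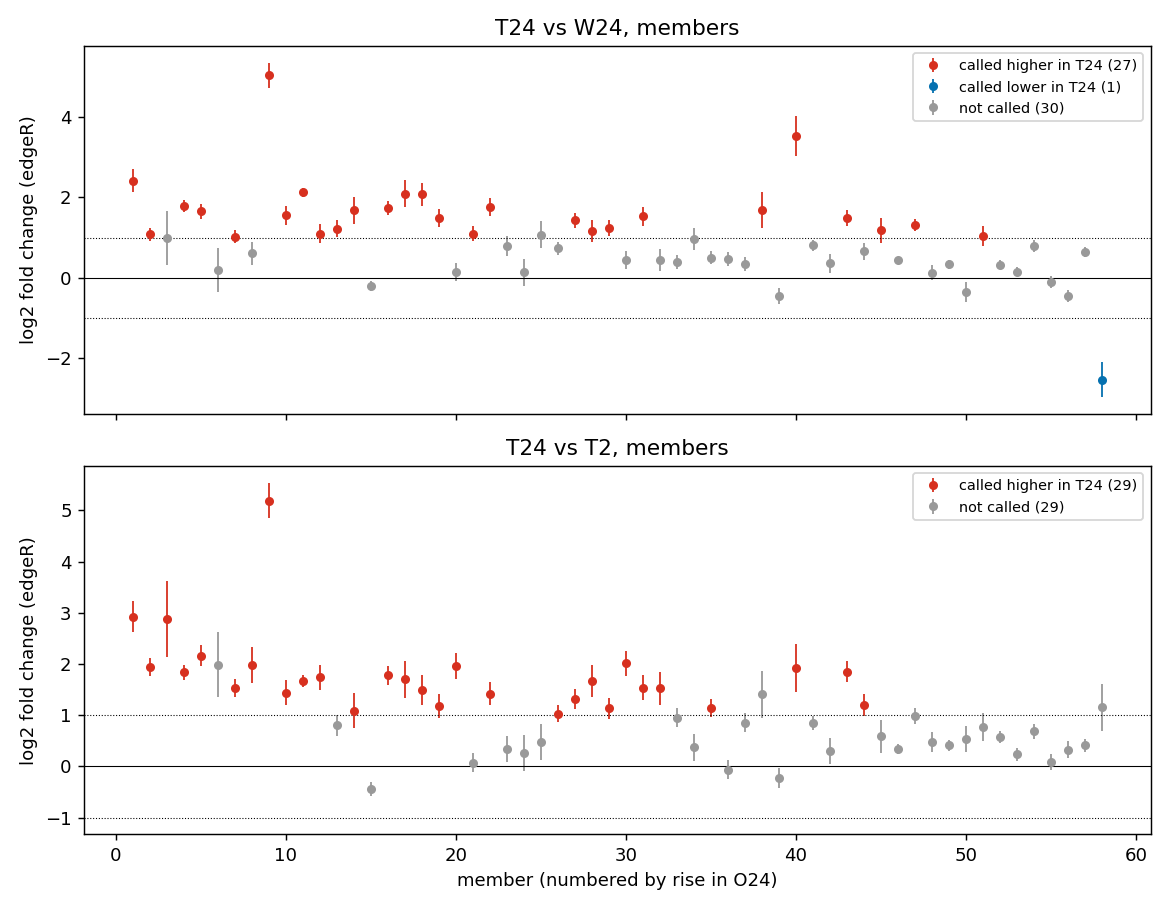
Log2 fold changes (edgeR, bars are standard errors) of the 58 members in T24 against W24 (top) and T24 against T2 (bottom), in member order; red marks members called higher in T24 (27 and 29), blue the 1 called lower, grey those not called, and dotted lines mark -1 and 1. Member 9 has the largest value in both panels, and member 58 is the only one called lower.

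At 2 h no member was called between the mites. Between O2 and T2, 0 of 58 members were called by edgeR (0% of all tested genes were called in each direction), and DESeq2 also called 0. At an unadjusted p under 0.05 edgeR gave 1 member, where 3.05% of all tested genes passed. The median log2 fold change was -0.04, with values from -0.57 to 0.39. Against W24 the 2-h mite groups differed for few members. In O2 against W24, 4 members were called lower (6.90%, with 3.81% of all tested genes) and 0 higher (1.53% of all), and at an unadjusted p under 0.05 24 members passed in either direction, where 31.1% of all tested genes did. In T2 against W24, 4 were called lower (3.82% of all tested genes) and 1 higher (1.47%). Members 20, 30 and 58 were called lower in both, with member 12 added in O2 and member 8 in T2. The 1 higher call was member 21, which was not called when T2 replicate 3, T2 replicate 4 or W24 replicate 2 was left out.

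Single members show how far these patterns vary. The largest rise under *O. pratensis* was that of member 1 (MLOC_70200). Its CPM in replicates 1 to 4 was 17.3, 16.0, 34.6 and 26.3 in C and 14.5, 9.28, 11.2 and 8.51 in W2. It was 649, 519.7, 846 and 761 in O24 and 110.3, 143, 145 and 231 in T24. The 2-h mite leaves had 14.9, 27.7, 21.9 and 22.6 in O2 and 14.9, 26.2, 16.4 and 15 in T2, and W24 had 16.3, 23.1, 24.5 and 45.5. Every W2 leaf lay below every control leaf, every T24 leaf lay above every leaf of the other groups except O24, and every O24 leaf lay above all of T24. The mean was 29.4-fold that of C in O24 and 6.68-fold that of C in T24. In the tests free of the rule MLOC_70200 was higher in T24 than in W24 by 2.42 on the log2 scale (SE 0.296, edgeR adjusted p = 4.15e-07) and higher than in T2 by 2.92 (SE 0.308, adjusted p = 3.96e-08).

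Member 2 (MLOC_18450) had the next largest rise in O24 and differed from member 1 after wounding. Its CPM was 6.48, 9.67, 9.32 and 8.43 in C, 3.71, 5.34, 2.95 and 3.04 in W2, and 13.6, 16.7, 18.8 and 17.8 in W24. Mite feeding for 24 h gave 103, 97.4, 116 and 137 in O24 and 33.8, 34.9, 30.4 and 53.2 in T24. The 2-h mite leaves lay at 6.56, 9.34, 7.77 and 8.87 in O2 and at 10.5, 7.77, 6.20 and 10.7 in T2, overlapping the controls. All 4 leaves of W24 lay above all 4 of C, so in this gene the low level at 2 h after wounding was followed by a level above control at 24 h. The log2 fold change of MLOC_18450 in T24 against W24 was 1.09 (SE 0.164, edgeR adjusted p = 6.01e-06), and it fell to 0.90, under the fold limit of a call, without T24 replicate 4. Against T2 it was 1.93 (SE 0.177, edgeR adjusted p = 2.05e-09).

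The lowest L values in W2, which include the pseudocount of 0.5 CPM, belonged to member 58 (MLOC_71895) and member 16 (MLOC_19854), which moved differently at 24 h. MLOC_19854 had 13.7, 16.6, 10.1 and 12.8 CPM in C and 4.29, 2.00, 2.87 and 3.23 in W2. It had returned to 10.2, 14.4, 12.6 and 10.2 in W24, within the range of the other untreated and 2-h mite leaves (8.80 to 18.4 over C, O2 and T2). Mites raised it to 68.3, 66.4, 80.4 and 58.5 in O24 and to 36.7, 52.4, 33.5 and 45.8 in T24. It was thus low only in W2 and high only in the 24-h mite groups, with no overlap between these and the rest. Its log2 fold change was 1.73 in T24 against W24 (SE 0.180, edgeR adjusted p = 2.14e-08) and 1.78 in T24 against T2 (SE 0.186, adjusted p = 2.25e-08).

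MLOC_71895 was the member with its highest mean after late wounding. W24 leaves had 122, 70.6, 151 and 69.9 CPM, against 22.7, 16.4, 16.5 and 21 in T24 and 51.6, 29.6, 70.8 and 44.1 in O24, where only the highest O24 leaf reached the lowest W24 leaves. W2 leaves had 4.08, 3.90, 5.74 and 4.40. The 2-h mite leaves had 12.4, 7.24, 9.02 and 8.36 in O2 and 10.1, 6.24, 7.29 and 6.65 in T2. Controls had 9.68, 64.9, 12.3 and 9.45, so that 1 leaf, C replicate 2, lay far above the other 3 and within the range of O24. MLOC_71895 was lower in T24 than in W24 by 2.53 on the log2 scale (log2 fold change -2.53, SE 0.436, edgeR adjusted p = 4.35e-05), lower in O2 than in W24 (-3.41, SE 0.461, adjusted p = 8.30e-06) and lower in T2 than in W24 (-3.68, SE 0.476, adjusted p = 4.24e-06). Without C replicate 2 its control mean was 10.5 CPM and its L in W2 was -1.13 in place of -2.29, so it still met the rule but no longer had the lowest value, which was then that of member 26 (-1.84). Its L in T24 was then 0.84, above control.

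**Figure D4:**
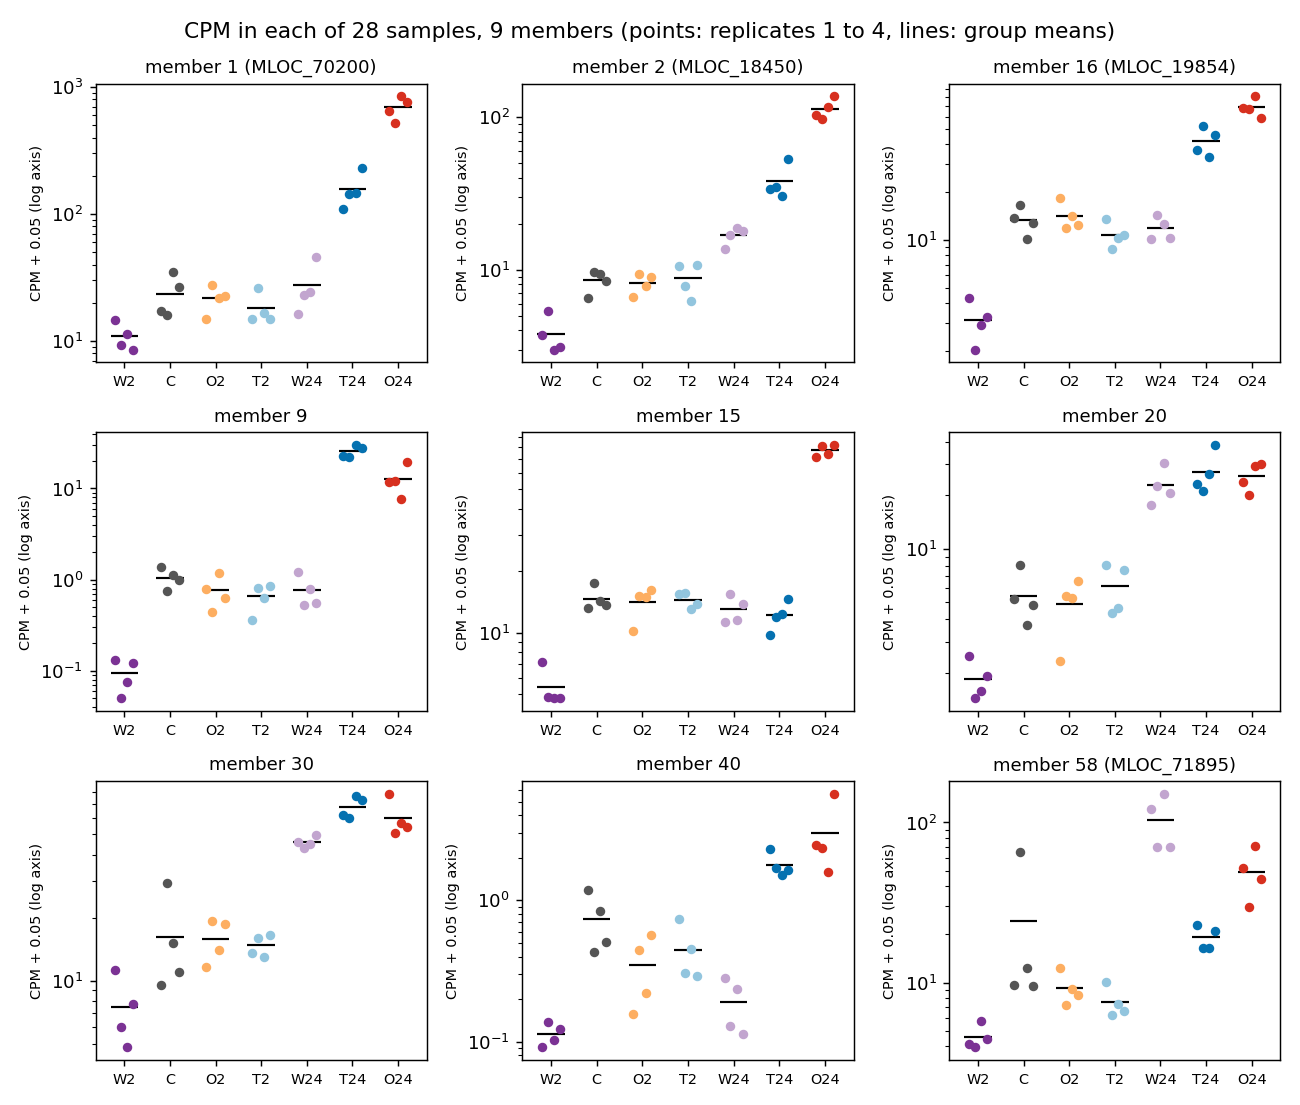
CPM + 0.05 on a log axis in each of the 28 samples for 9 members, with points for replicates 1 to 4 and lines at group means. Members 1, 2 and 16 are high in both 24-h mite groups, member 9 is highest in T24, member 15 is high in O24 alone, members 20 and 30 are raised in W24 as well, member 40 is low in W24, and member 58 has its highest mean in W24.

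The members shown next were chosen after their values had been seen, as examples of patterns in the plot of all samples. Members 4, 5 and 11 followed the common order of groups, with W24 means of 0.909 to 1.40 times control and with O24 above T24. They rose further than most members. Their L was 2.89 to 3.31 in O24 and 1.92 to 2.17 in T24, above the upper quartiles of 2.35 and 1.49. Member 4 had a mean of 66.3 ± 7.89 CPM in C (SD, n = 4), 26 ± 7.14 in W2, 67.4 ± 3.74 in W24, 252 ± 43 in T24 and 663 ± 93.0 in O24. Member 5 went from 8.38 ± 1.85 in C and 2.74 ± 0.674 in W2 to 39.5 ± 2.23 in T24 and 86.7 ± 9.42 in O24, with 11.7 ± 2.32 in W24. Member 11 had 3.51 ± 0.507 in C, 1.08 ± 0.209 in W2, 3.19 ± 0.356 in W24, 15 ± 1.73 in T24 and 29.3 ± 2.84 in O24, and its T24 against W24 contrast (2.13, SE 0.117) had the smallest edgeR adjusted p of the members, 3.59e-13. In each of the 3, T24 reached between 3.80-fold and 4.72-fold of control and O24 between 8.35-fold and 10.3-fold.

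Member 9 departed from the order of O24 above T24, which the choice of members by O24 favours. T24 leaves had 22.7, 22, 29.8 and 28.0 CPM and O24 leaves 11.7, 11.9, 7.63 and 19.7, so that every *T. urticae* leaf lay above every *O. pratensis* leaf. C leaves had 1.31, 0.696, 1.08 and 0.937, W24 leaves 1.17, 0.475, 0.741 and 0.510, and W2 leaves at most 0.0825, with 0 in replicate 2. The log2 fold change was 5.04 in T24 against W24 (SE 0.312, edgeR adjusted p = 2.88e-12) and 5.19 in T24 against T2 (SE 0.344, adjusted p = 7.07e-12), the largest of all members in both. The same order of the mites was seen in smaller measure in member 43, which had 13, 11.2, 14.4 and 13.7 in T24 and 12.1, 10.1, 10.6 and 11.6 in O24. Those ranges overlapped.

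Members 15 and 39 stood at the other end, high under *O. pratensis* and not under *T. urticae*. Member 15 had 71.5, 80.9, 73.6 and 81.7 CPM in O24 and 9.66, 11.9, 12.3 and 14.5 in T24, with 13.1, 17.4, 14.2 and 13.6 in C and 7.13, 4.82, 4.78 and 4.73 in W2. Its O24 mean was 5.28-fold that of C and 6.37-fold that of T24, whereas T24 leaves overlapped those of C, O2, T2 and W24. In T24 against W24 its log2 fold change was -0.20 (SE 0.130, edgeR adjusted p = 0.193). Member 39 had means of 22.5 ± 1.88 in C (SD, n = 4), 22.1 ± 3.30 in W24, 6.12 ± 2.51 in W2, 17.4 ± 2.89 in T24 and 67.5 ± 16.1 in O24, and its T24 against W24 value of -0.45 (SE 0.196) had an edgeR adjusted p of 0.0591.

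Members 20 and 30 were raised by late wounding nearly as far as by mites. Member 20 had 17.5, 22.6, 30.3 and 20.6 CPM in W24, 23, 21.1, 26.1 and 38.2 in T24 and 23.7, 20.0, 29.1 and 29.9 in O24, and these 3 sets of leaves overlapped. All 12 lay above the highest of C, O2 and T2 (8.07), and the W2 leaves had 2.43, 1.39, 1.54 and 1.87. Relative to W24 the 2-h mite leaves were lower, with log2 fold changes of -2.17 in O2 (SE 0.251, edgeR adjusted p = 5.45e-07) and -1.81 in T2 (SE 0.250, adjusted p = 7.77e-06), while T24 against W24 gave 0.15 (SE 0.226, adjusted p = 0.605). Member 30 had 46.1, 42.9, 45.1 and 49.8 in W24, 61.5, 59.6, 76.2 and 73.2 in T24 and 77.9, 50.7, 56.4 and 54.1 in O24. Its control leaves had 9.55, 29.2, 15.2 and 10.9, and without the leaf at 29.2 (C replicate 2) the control mean was 11.9 and the gene no longer met the rule. Member 6 had a W24 mean of 7.85 ± 7.66 (SD, n = 4), which 1 leaf at 19.2 pulled up. Its other W24 leaves had 3.27, 5.62 and 3.29, also above the highest control leaf (2.85).

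Member 40, a gene with few reads, was low after wounding at both times. Its CPM was 1.14, 0.383, 0.787 and 0.454 in C, 0.0412, 0.0868, 0.0522 and 0.0734 in W2 and 0.234, 0.0791, 0.185 and 0.0638 in W24, so every wounded leaf lay below every control leaf. T24 had 2.27, 1.64, 1.46 and 1.59 and O24 had 2.42, 2.29, 1.53 and 5.61. The contrast of T24 with W24 was 3.52 (SE 0.494, edgeR adjusted p = 2.16e-06). Member 21 was the one member called higher in T2 than in W24, with 12.5, 13.5, 13.8 and 15 CPM in T2 and 7.36, 6.05, 7.78 and 7.30 in W24. Its O2 leaves had 12.1, 17.3, 9.70 and 9.57, above the highest control leaf (8.76), and T24 against T2 gave a log2 fold change of 0.07 (SE 0.185, edgeR adjusted p = 0.786).

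Which genes met the rule depended in part on single leaves. C replicate 2 was the highest of the 4 control leaves for 32 of the 58 members (replicates 1, 3 and 4 were highest for 7, 12 and 7), and for members 3 and 58 it was more than 2-fold above the next. Member 3 had 11, 114, 20.3 and 2.02 CPM in C and a mean of 13.3 in W2, which is above the mean of 11.1 of the other 3 control leaves. When the rule was applied without C replicate 2 it gave 46 genes, and 41 of the 58 members were among them. Over the 12 lists made by leaving out each replicate of C, W2 or O24 in turn, 31 members were in every list. Of these 31, 17 (54.8%) were called higher in T24 than in W24 and 15 (48.4%) higher in T24 than in T2. Of the 41 members kept without C replicate 2, 23 (56.1%) and 21 (51.2%) were called.

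Barley genes with known functions, paired with Arabidopsis genes by an ortholog sheet of the study, give the setting in which the members moved, and none of them is a member. The 2 jasmonate genes, counterparts of AOS (an enzyme of jasmonate synthesis) and JAZ1 (a repressor of jasmonate signalling), were both called higher than in C in W2, W24, O24 and T24, both higher in T24, O2 and T2 than in W24, and neither was called between T24 and T2. Both were thus high in the early wounding in which the members were low. Of 8 genes of light harvesting and chlorophyll synthesis, 3 were called lower than in C in W2, 6 in O24 and 3 in T24, with 1 lower in T24 than in W24, 2 lower in T24 than in T2 and 0 called in the 2-h comparisons. The 4 mesophyll markers are part of this list, and 1 of them was lower in T24 than in W24 and 2 lower in T24 than in T2.

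The remaining lists are given for the comparisons that rest on no sample of the rule, with calls against C beside them as description. Of 4 genes of DNA replication, 1 was called higher in T24 than in W24 and 1 higher in T24 than in T2. Against C, 3 were called higher in O24, 1 in T24, 1 in W2 and 0 in W24. Of 3 genes of salicylate signalling and phenylpropanoid synthesis (counterparts of PAD4, CYP98A3 and a DAHP synthase), 1 was called higher in T24 than in W24, 0 between T24 and T2, and 1 higher in O2 than in W24. Against C, 2 of them were called higher in O24, 2 in T24, 1 in W2 and 0 in W24, with 1 lower in W2. The 2 genes of carotenoid synthesis (PDS and ZDS) gave 0 calls in these contrasts and 0 against C in W2, W24, O24 and T24. The wax synthesis gene CER1 was called lower in T24 than in W24 and lower in O24 than in C, at levels under 1 CPM. Of 67 plastid-encoded genes, 51 were tested, and 0 were called in the 5 comparisons free of the rule. The libraries were selected for poly(A) tails, and several listed plastid genes had no counts in any group. How far these counts follow plastid transcript levels was not tested. Against C, 18 of the 51 were called lower in O24 (2636 of all 16948 tested genes were) and 0 in W2, W24 and T24.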

How the data were processed

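RNA-seq of 28 barley leaf samples was used, 4 in each of 7 groups taken from the sample titles. The authors made stranded poly(A) libraries, aligned paired reads to barley ASM3268v1 with STAR, whose version is given differently in the submitters' notes (2.5.1b) and in the paper, and counted uniquely aligned reads per gene with HTSeq 0.6.0. Raw counts as deposited by the authors were used. Because only uniquely aligned reads were counted, near-identical genes may be undercounted. All 28 columns matched 1 sample each, 0 columns were left out, and 0 rows named no gene. Over the 42 pairs of replicates within groups, the chi-square per gene was 8.59 or more (1 is sampling noise), so none repeated a library.

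CPM used column totals and a pseudocount of 0.5 in the rule. Counts were fitted in R 4.3.3 with edgeR 4.0.16 (filterByExpr with a minimum count of 10, TMM factors, robust quasi-likelihood, 1 mean per group over all 28 samples). Adjusted p-values are Benjamini-Hochberg over the 16948 genes tested, and called means an adjusted p below 0.01 with a log2 fold change beyond 1 in either direction. A standard error is the log2 fold change over the root of F. The tests were tested on simulated data. Alternatives were DESeq2 1.42.0, other scalings, filters and thresholds, a replicate block, only the groups compared, each replicate left out, and other forms of the rule.

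The members, gene lists, tests and alternatives were chosen with earlier results of these data known. The rule for named genes took members with an annotation and, among those without one, the 2 with the largest L in O24 and the 2 with the lowest L in W2 that averaged at least 1 CPM. Since 0 of 25592 identifiers matched the RefSeq gene table of MorexV3 and the copy of the study's ortholog sheet used here, which is shortened, paired no member (it does not show that none has a counterpart), only the last 4 were named. The lists were genes of leaf mesophyll, light harvesting and chlorophyll synthesis, carotenoid synthesis, jasmonate, salicylate and phenylpropanoids, DNA replication (dividing cells), wax (epidermis) and the plastid genome. Checks of length and GC content were not made.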

Additional observations from a re-analysis of the deposited data

Results flagged for a closer look

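Of 161 sets of 4 replicate values examined (each member shown, the totals and the medians over members), 11 held a leaf set far apart from the other 3 of its group, and chance gives about 1 in 20. No explanation was tested for any of them.

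Among the controls, replicate 2 stood apart for MLOC_71895, at 64.9 CPM where the others had 9.45 to 12.3, for member 3, at 114 CPM (others 2.02 to 20.3), and for member 24, at 21.1 CPM (others 15.5 to 16.3). In O2, replicate 1 stood apart for member 24, at 1.01 CPM (others 14.1 to 16.8), for member 8, at 1.85 CPM (others 0.592 to 0.794), and for member 6, at 1.75 CPM (others 2.71 to 2.84). Replicate 2 of T2 had 26.2 CPM of MLOC_70200, where the others had 14.9 to 16.4. Replicate 1 of W2 had 7.13 CPM of member 15 (others 4.73 to 4.82), and replicate 3 of W24 had 19.2 CPM of member 6 (others 3.27 to 5.62). The median log2 change over members was 0.0595 in replicate 2 of W24 and -0.0016 to 0.0033 in the others. Replicate 3 of T24 had a total of 13.7 M counts, where the others had 20.2 M to 20.7 M, and without it 27 members were still called higher in T24 than in W24.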

How the results depend on the processing

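The rule for members was the most sensitive choice. A pseudocount of 0.1 CPM in place of 0.5 gave 112 genes, including all 58 members, 1 CPM gave 39, TMM-scaled CPM gave 49 (47 shared), and leaving out 1 replicate gave 46 to 71. The counts of calls moved less. Over the replicates left out, 22 (without T24 replicate 4) to 27 members were called higher in T24 than in W24 and 27 to 30 higher in T24 than in T2. In these fits 1255 to 1547 and 1347 to 1697 of all tested genes were called higher. The same members were not always called. Of the 27 and 29 called in the main fit, 19 and 26 kept the call whichever replicate was left out, and 18 and 23 kept it in all 18 alternative fits. DESeq2 gave 28 and 30 (1554 and 1715 of all tested genes), and scaling by the upper quartile gave 25 and 27 (1410 and 1556). Library size alone moved the median of all genes by 0.10 and 0.19 on the log2 scale and gave counts of 29 and 35 (1750 and 2262 of all tested genes). Restricted to the 31 members present in each of the 12 lists they were 17 and 15, an alternative chosen after seeing the data, and these are lower because fewer members were counted. With no fold change minimum 2 members were called higher in O2 than in W24, with 9 lower, 2 higher in T2 than in W24, and 1 lower in T24 than in T2. Of all 16948 tested genes, 632, 1114, 654 and 2859 were called in the same order. The single member higher in T2 than in W24 ranged from 0 to 1 over the replicates left out and was 0 with library size alone. Among members chosen by TMM-scaled CPM 0 were lower in T24 than in W24. MLOC_71895 in T24 against T2 (log2 fold change 1.15) passed at an adjusted p under 0.05 or when only the groups compared were fitted. The paper describes a randomized block design, and the sample titles do not say whether replicate numbers follow its blocks. In the column identifiers, samples of the same replicate number from all groups run together, which can reflect blocks or only the order of processing. Correlations of same-numbered deviations ran from -0.149 to 0.315. Neither settles whether replicate numbers follow the blocks, and the main fit used no block. With a replicate block 28 and 29 members were called higher in T24 than in W24 and T2 (1521 and 1703 of all tested genes), with no other count of calls moved. Low counts limit members 9 and 40, which had at most 2 counts in each W2 library.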
